A study of Mus musculus with 9 samples.

Results

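The transcriptome of mouse 2-cell embryos cultured under high glucose was set against that of 2 other groups combined, to find the genes whose level under high glucose stood apart from a level that both other groups shared. The members were chosen by their labels: 3 high glucose libraries against 6 others, which together are all 9 libraries of the series. Zygotes of the outbred ICR strain were cultured to the 2-cell stage, and 3 embryos were pooled for each RNA library. The control group has no named treatment. The high glucose group was loaded with high glucose, at a dose and for a time that the labels do not give. The remaining group received the same glucose load together with serum of rats given ZGW, an abbreviation that the labels do not explain, and is called ZGW serum here. The labels do not say whether the control and high glucose groups received drug-free rat serum, so in the comparison with ZGW serum the rat serum and the drug it carried cannot be told apart. The labels call the libraries biological replicates but name no matings or dams, so p-values measure the spread between these pools.

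At the 2-cell stage the mouse embryo runs down the mRNA that the oocyte stored and starts its own transcription, beginning with a short burst of 2-cell genes. In the first cleavages the embryo takes its energy mainly from pyruvate and lactate oxidised in mitochondria, and glucose uptake and glycolysis become important later. Excess glucose at these stages, as in maternal diabetes, is known to slow preimplantation development.

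No gene passed the test. Of 16964 genes with enough counts, edgeR's quasi-likelihood test called 0 at a Benjamini-Hochberg adjusted p under 0.05, which is 0% of genes tested, and 1238 (7.3%) had an unadjusted p under 0.05, 726 of them higher (4.28%) and 512 lower (3.02%). DESeq2 called 87 (0.513%), of which 37 were higher (0.218%) and 50 lower (0.295%) under high glucose, and limma-voom called 0. On simulated counts with known changes for this same contrast, the edgeR test recovered 6% of genes changed by 2-fold and 58% of genes changed by 4-fold, so differences near 2-fold were mostly not detectable at this replication. The values below are therefore levels and differences that did not pass, except where DESeq2 is named.

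A gene was said to stand apart when all 3 high glucose libraries lay above, or all 3 below, all 6 others, and when ZGW serum and control differed by no more than the size of the difference between high glucose and both divided by 2. Levels are given as CPM, counts per 1000000 counts of the library after scaling with TMM factors, so they are relative to the rest of the library. All 3 high glucose libraries lay above all 6 others in 306 genes (1.8%) and below them in 370 (2.18%). With the second condition, 215 genes (1.27%) stood apart with higher levels and 266 (1.57%) with lower levels. The median log2 fold change over all genes tested was 0.02.

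The 12 genes with lower levels under high glucose named here are those of lowest p among the genes that stood apart. They include genes for proteins of the large ribosomal subunit (Rpl37, Rpl32, Rpl26), of the box H/ACA particles that modify ribosomal RNA (Nop10), of RNA polymerase II and its Mediator (Polr2j, Med31), of the spliceosome (Ppih) and of the respiratory chain (Cox7b). The others are Atpif1, for an inhibitor of the ATP synthase, Deb1, Snhg8 and Snord72. Because all 12 genes were chosen for groups that do not overlap, the lack of overlap among them is a product of the choice. Their log2 fold changes ran from -1.54 to -0.84, and their edgeR adjusted p-values from 0.447 to 0.61. All 12 passed with DESeq2 (0.295% lower over all genes), on the same contrast that chose them.

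Rpl37, on chromosome 15 at 5116645 to 5119140 (GRCm38), encodes a zinc-binding protein of the large subunit. Its level was 60.5, 68.7 and 73.3 CPM under high glucose, 167, 290.4 and 182 CPM in control, and 133, 261 and 149 CPM with ZGW serum. The highest high glucose library was below the lowest of the others, and the control and ZGW serum libraries were interleaved. The log2 fold change was -1.54 ± 0.30 (SE, n = 3 and 6, edgeR adjusted p = 0.447, DESeq2 adjusted p = 0.00106), and that of ZGW serum against control was -0.23 (95% interval -0.95 to 0.48). The small nucleolar RNA Snord72 lies inside this gene on the same strand (5118404 to 5118484). It had 22.6, 26.3 and 28.2 CPM under high glucose against 52.4 to 107 CPM in the others, and reads of the pair cannot be told apart in these counts. Rpl32, another large subunit protein gene, had 144, 152 and 181 CPM under high glucose, 299, 397 and 259 CPM in control, and 313, 355 and 418 CPM with ZGW serum. In Rpl26, whose protein also binds the p53 mRNA, the high glucose libraries had 206, 228 and 229 CPM and the others 317 to 547 CPM. Of the 50-base stretches of these 3 genes' transcripts, 26.7% in Rpl37, 26.1% in Rpl32 and 47.4% in Rpl26 occur in transcripts of other genes as well, so part of their counts depends on how shared reads were assigned.

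Nop10 has little such shared sequence (2.74%) and gave one of the clearest separations. The high glucose libraries had 87.2, 115 and 103 CPM, the control libraries 175, 192 and 187 CPM, and the ZGW serum libraries 221, 220.1 and 301 CPM. Every high glucose library was thus well below every other, with a log2 fold change of -1.07 ± 0.22 (SE, edgeR adjusted p = 0.447), and ZGW serum was above control by 0.42 (95% interval -0.11 to 0.95). Deb1, listed in the annotation as Ss18l2, a small homologue of the SS18 chromatin remodelling subunit, had 114, 93.3 and 71.4 CPM under high glucose and 167 to 265 CPM in the others (log2 fold change -1.18 ± 0.24, SE). Snhg8, a non-coding host of a small nucleolar RNA, had 23.1, 23.6 and 32.8 CPM against 46.8 to 89.1 CPM.

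Med31, a subunit of the Mediator complex that links transcription factors to RNA polymerase II, had 88.9, 102 and 129.8 CPM under high glucose, 168, 218 and 196 CPM in control, and 226, 222 and 310.4 CPM with ZGW serum. Polr2j, an RNA polymerase II subunit, had 289.5, 375 and 326 CPM against 409.6 to 825 CPM, so its highest high glucose library came close to the lowest control library. Ppih, a cyclophilin of the U4/U6.U5 splicing particle, had 335, 413 and 483 CPM against 561 to 889 CPM, and 41.3% of its sequence is shared. Cox7b, a subunit of cytochrome c oxidase on the X chromosome, had 34.9, 61.1 and 54.7 CPM against 84.6 to 136 CPM, with control and ZGW serum at almost the same mean. Atpif1, the inhibitor of the mitochondrial ATP synthase, had 66.8, 42.4 and 45.8 CPM against 85.6 to 135 CPM.

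Promoters of 5 of these genes are shown because the lower genes come from pathways whose promoters often carry the ETS-family core CCGGAAG, where factors such as GABPA bind. The windows run from 60 bases before to 20 after the RefSeq start (GRCm38.p6), with CCGGAAG in capitals where it occurs. They are Rpl37 at chr15:5116553-5116632, Rpl26 at chr11:68901506-68901585, Polr2j at chr5:136116631-136116710, Nop10 at chr2:112261866-112261945 and Cox7b at chrX:106015640-106015719, all on the plus strand.
Rpl37: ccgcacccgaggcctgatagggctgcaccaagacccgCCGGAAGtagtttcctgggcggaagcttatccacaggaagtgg
Rpl26: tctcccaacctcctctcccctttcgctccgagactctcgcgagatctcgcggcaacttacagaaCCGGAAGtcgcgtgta
Polr2j: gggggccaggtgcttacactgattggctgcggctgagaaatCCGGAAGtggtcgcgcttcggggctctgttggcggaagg
Nop10: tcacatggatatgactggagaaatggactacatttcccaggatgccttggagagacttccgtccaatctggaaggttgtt
Cox7b: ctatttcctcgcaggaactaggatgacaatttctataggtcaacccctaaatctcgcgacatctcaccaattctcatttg
CCGGAAG or its reverse complement CTTCCGG occurred in 4 of the 10 named lower genes with a RefSeq promoter (Rpl37, Ppih, Rpl26 and Polr2j), searched on both strands from 250 bases before to 50 after the start, and in 8.86% of all 32851 promoters of that length in the table. That share is per promoter, whether or not its gene was tested, while a named gene counted if any of its starts matched. The 2 are thus unlike measures. Of the 12 higher genes chosen by the same rule 9 had a RefSeq promoter (75%), and 1 of these, Arap2, held the letters. So few genes were matched in either set that no difference between the higher and lower genes can be read from these counts. Nop10 and Cox7b had no match in that window. A match describes these letters and is not a measured binding site. The RefSeq table held promoters for 77.2% of ribosomal protein genes and 76.7% of genes tested, so the same count over the whole lists was void.

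The 12 genes with higher levels under high glucose that the same rule chose did not share a pathway list. Their log2 fold changes ran from 0.76 to 1.45, and their edgeR adjusted p-values from 0.447 to 0.61. With DESeq2, 7 of the 12 passed (0.218% higher over all genes, on the contrast that chose them), among them Fam46c, Stambp, Mllt10, Fam179b, Zfp944 and Foxp2. Fam46c, listed in the annotation as Tent5c, encodes a non-canonical poly(A) polymerase that lengthens mRNA tails. It had 57.2, 69.5 and 82.1 CPM under high glucose, 27.9, 29.6 and 26.02 CPM in control, and 26.9, 35.2 and 24 CPM with ZGW serum. The control and ZGW serum libraries were close together and every high glucose library was above them, with a log2 fold change of 1.30 ± 0.26 (SE, edgeR adjusted p = 0.447, DESeq2 adjusted p = 0.000588) and 0.04 for ZGW serum against control (95% interval -0.65 to 0.74).

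Atrx, an X-linked chromatin remodeller that deposits histone H3.3 at repeats, had 207, 143 and 196 CPM under high glucose, 85.7, 53.9 and 115 CPM in control, and 65.1, 83.98 and 111 CPM with ZGW serum. Mllt10, a cofactor of the DOT1L histone methyltransferase, had 342, 228 and 345 CPM against 126 to 219 CPM, so its second high glucose library was just above the highest of the others. Stambp, a deubiquitinase of endosomes, spread widely under high glucose, with 79.6, 51.0 and 31.0 CPM against 14.7 to 24.3 CPM. Fam179b, listed as Togaram1 and known for tubulin binding at the cilium, had 435, 396 and 348 CPM against 201 to 284 CPM.

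Mtap, the enzyme that salvages methylthioadenosine to methionine, had 85.2, 66.3 and 69.1 CPM under high glucose against 19.98 to 43.6 CPM in the others. Dmxl1, which takes part in the assembly of the vacuolar proton pump, had 106, 116 and 110.4 CPM against 31.7 to 70.2 CPM, with the high glucose libraries close together. Zfp944, a zinc finger gene, had 77.0, 66.1 and 71.1 CPM against 26.5 to 53.0 CPM. Arap2, a GTPase-activating protein for Arf6, had 201, 172 and 217 CPM against 82.2 to 143 CPM. The transcription factor gene Foxp2 had 34.2, 19.6 and 31.5 CPM against 9.95 to 13.7 CPM. Its second high glucose library was nearer to the others than its 2 partners. For all 24 genes that the rule chose the 95% interval of ZGW serum against control included 0. The rule limits the size of this difference, so that result was largely set by the choice.

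**Figure D1:**
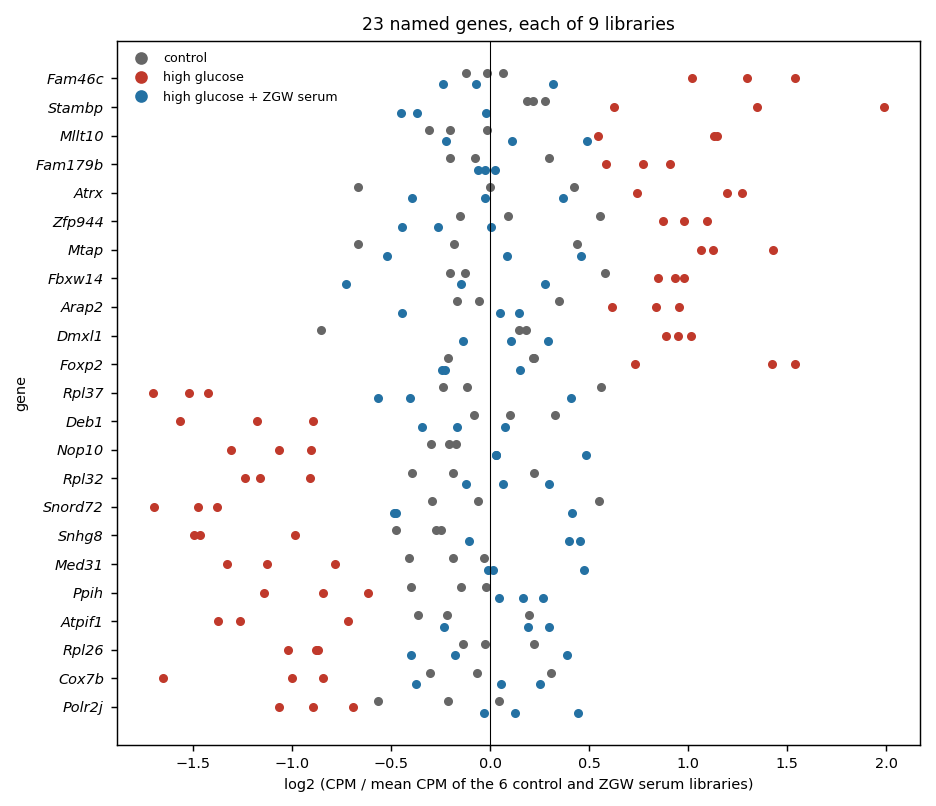
Level of 23 named genes in each of the 9 libraries, as log2 of the CPM over the mean CPM of the 6 control and ZGW serum libraries (x axis), with 1 row of points per gene. The high glucose points lie to the right of all others in the 11 higher genes and to the left in the 12 lower genes. That is how the genes were chosen. The control and ZGW serum points lie around 0. In Nop10, Med31, Ppih, Snhg8 and Stambp these groups did not overlap each other.

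The genes of the cytoplasmic ribosome were lower as a list. Of 79 ribosomal protein genes, 75 had a log2 fold change below 0, with a median of -0.71, beside 8263 of 16964 (48.7%) and 0.02 over all genes. Rpl4 (0.38), Rpl7a (0.06), Rpl17 (0.02) and Rplp0 (0.00) were the exceptions. In 26 of the 79 all high glucose libraries lay below all others (2.18% over all genes) and 20 stood apart (1.57% over all genes). The edgeR test called 0 of them and DESeq2 called 3 as lower (0.295% over all genes). All 32 small subunit genes were lower, with a median of -0.68, and 43 of 47 large subunit genes, with a median of -0.71.

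The median was -0.89 against control and -0.47 against ZGW serum. ZGW serum itself was 0.29 below control on the same scale, so its ribosomal protein transcripts sat between the other groups. Together these genes took 1.02%, 1.51% and 1.15% of counts under high glucose, 1.92%, 2.72% and 1.72% in control, and 1.54%, 2.58% and 1.66% with ZGW serum. The second high glucose library came within a small margin of the first ZGW serum library, and no high glucose library overlapped with the others, while the control and ZGW serum libraries overlapped each other. A smaller share can come, among other things, from fewer cells or nuclei that express these genes, from less of their RNA per cell or from more of other RNA. These cannot be told apart in pooled embryos, and the cause was not tested.

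Individual small subunit genes show the spread. Rps14, which lies in the platform of the small subunit, had 160.1, 255 and 196 CPM under high glucose, 331, 643 and 315 CPM in control, and 296, 376 and 484 CPM with ZGW serum. Rps16 had 122, 175 and 173 CPM against 205 to 405 CPM. Rps15a had 301, 329.5 and 286 CPM against 391 to 1756 CPM, and did not meet the condition on ZGW serum and control, with its last ZGW serum library far above the rest.

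Counts for most of these genes depend on shared sequence: 67 of 79 (84.8%) have more than 10% of their 50-base stretches in other transcripts. The 12 with 10% or less were all lower, with a median of -0.70. With any 1 library left out the list's median stayed between -0.91 and -0.59, and it was -0.79 without the first control library and the last ZGW serum library, which lay farthest apart in a principal component analysis.

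Respiratory chain and ATP synthase genes were lower as well. Of 79 nuclear-encoded genes, 67 had a log2 fold change below 0 (48.7% over all genes), with a median of -0.61 (-0.53 against control and -0.65 against ZGW serum), while ZGW serum was 0.16 above control. All high glucose libraries were below all others in 14 (2.18% over all genes), and 6 stood apart with lower levels (1.57% over all genes): Ndufa11, Cox7b, Cox8a, Cox5b, Cycs and Atpif1. The edgeR test called 0 and DESeq2 called 5 as lower (0.295% over all genes). The list took 0.384%, 0.447% and 0.422% of counts under high glucose and 0.510% to 0.731% in the others.

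Complex I, which passes electrons from NADH to ubiquinone, had 30 of 36 genes lower (median -0.55). Complexes II to IV had 22 of 26 lower (median -0.65) and ATP synthase 15 of 17 (median -0.54). The share of counts of the ATP synthase genes alone overlapped, with 0.1436% in the third high glucose library and 0.1425% in the third control library. Cox7a2, a cytochrome c oxidase subunit, had 237, 274 and 302 CPM under high glucose, 439, 567 and 358 CPM in control, and 632, 667 and 993 CPM with ZGW serum (log2 fold change -1.12 ± 0.24, SE, DESeq2 adjusted p = 0.00788). Its ZGW serum level was above control by 0.75 (95% interval 0.16 to 1.33), so it did not stand apart by the rule although no libraries overlapped. Ndufa4, an oxidase subunit first assigned to complex I, had 157, 201 and 213 CPM against 262 to 508 CPM with the same order of groups. Cox8a had 237, 256 and 214 CPM against 327 to 632 CPM, and there control was the highest group on average.

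Single complex I genes differed in how the groups lay. Ndufa11, an assembly-linked membrane subunit, had 25.5, 78.4 and 81.6 CPM under high glucose against 85.0 to 198 CPM, with the first high glucose library far below its 2 partners. Ndufb6 had 153, 134 and 91.7 CPM, with 293, 250.5 and 241 CPM in control and 197, 168 and 168 CPM with ZGW serum, which placed ZGW serum between the other groups. Ndufa2 overlapped, with 102 CPM in the second high glucose library against 96.8 CPM in the first control library. Members of the respiratory list with higher values included the complex I core subunit Ndufs1 (log2 fold change 0.92) and the succinate dehydrogenase anchor Sdhc (0.83), neither of which passed.

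**Figure D2:**
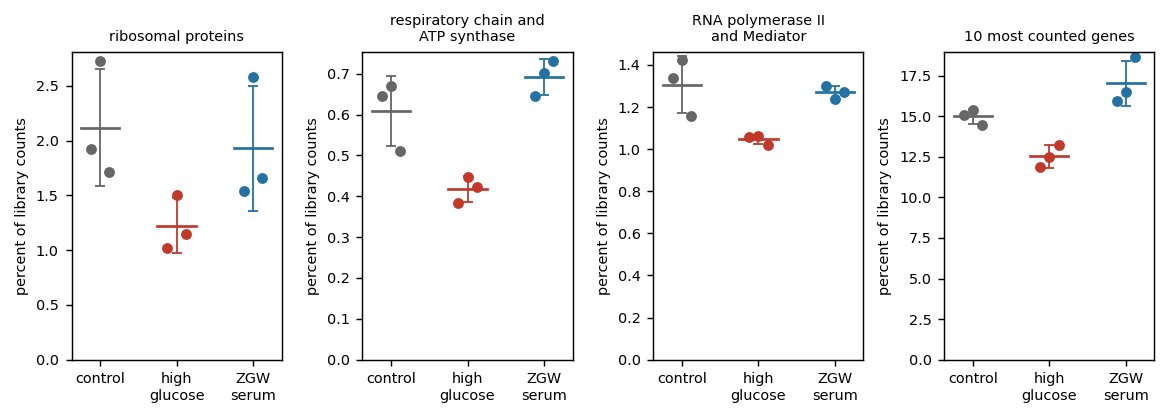
Percent of library counts (y axis, from 0) held by 79 ribosomal protein genes, by 79 respiratory chain and ATP synthase genes, by 74 RNA polymerase II and Mediator genes and by the 10 most counted genes, in each library, with the group mean (line) and SD (bars, n = 3). The 10 most counted genes were ranked within each library. In each panel the 3 high glucose libraries lie below the 6 others.

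Of 23 genes for the Sm and LSm proteins, the rings that hold spliceosomal RNAs and mark mRNA for decay, 18 were lower (median -0.51). Snrpg had 1002, 1052 and 1175 CPM under high glucose, 1943, 1912 and 1472 CPM in control, and 2258, 2837 and 4240.4 CPM with ZGW serum, so ZGW serum was higher than control by 0.81 (95% interval 0.23 to 1.39). Lsm7 and Snrpe had the same order of groups, and 0 of the 23 stood apart. Without the last ZGW serum library the list's median was -0.32. In RNA polymerase II, the general factors and Mediator, 38 of 74 were lower with a median of -0.05, although their joint share was 1.02% to 1.06% under high glucose and 1.16% to 1.42% in the others. The 4 that stood apart with lower levels (1.57% over all genes), Med31, Polr2j, Polr2i and Polr2l, are small subunits. Gtf2e1 was the single member that stood apart with a higher level (1.27% over all genes). Polr2i had 13.8, 36.95 and 25.3 CPM against 38.2 to 73.2 CPM and Polr2l had 286, 538 and 481 CPM against 567 to 1173 CPM, so in both the second high glucose library was near the lowest control library.

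Of the mitochondrial ribosomal protein genes, 45 of 76 were lower with a median of -0.10, and 0 stood apart. Translation initiation factors had a median of 0.02 (15 of 39 lower) and ribosome assembly factors -0.07 (28 of 53 lower). Within the last list Nop10 was lower, while Nop56, the core protein of box C/D particles, had 190.3, 111 and 159 CPM under high glucose against 61.3 to 135 CPM. The proteasome list had a median of -0.04.

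**Figure D3:**
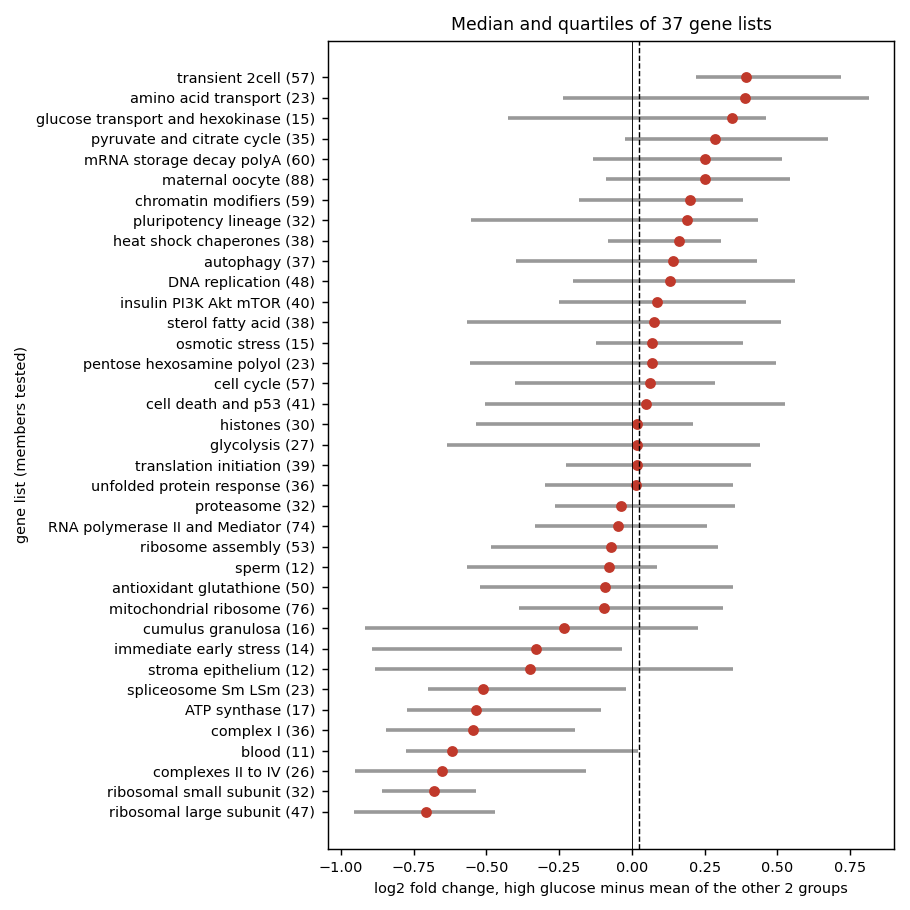
Median (point) and quartiles (bar) of the log2 fold change of high glucose minus the mean of both other groups, for 37 gene lists with the number of members tested in brackets. The dashed line is the median of all genes tested, 0.02. The ribosomal protein lists lie lowest, at -0.71 and -0.68, followed by complexes II to IV at -0.65 and the blood markers at -0.62, and the 2-cell and amino acid transport lists lie highest, both at 0.39.

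The lower lists are made of short transcripts. Over the whole table level differences rose weakly with transcript length (Spearman correlation 0.17, 16752 genes), most steeply among the shortest. In the 10% of genes with the shortest transcripts (39 to 908 bases, longest transcript in GENCODE M21) the median log2 fold change was -0.38, and in the 10% with the longest it was 0.20. Of the shortest class, 4.24% stood apart lower and 0.239% higher. In the longest class these shares were 0.537% and 2.27%. The median transcript was 1804 bases among genes that stood apart lower, 3740 bases among those higher and 2936 bases over all genes.

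For values per library, each gene was set against its mean over the 6 control and ZGW serum libraries, which places those 6 around 0. The shortest class minus the longest class was then -0.80, -0.33 and -0.68 (log2) under high glucose, and -0.30 to 0.17 in the others. The second high glucose library was thus close to the third control library. With the trend by length removed, the median of the ribosomal protein list was -0.48 rather than -0.71, that of the respiratory list -0.39 rather than -0.61, and that of the mitochondrial ribosome 0.01 rather than -0.10. The cause of the length trend was not tested.

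**Figure D4:**
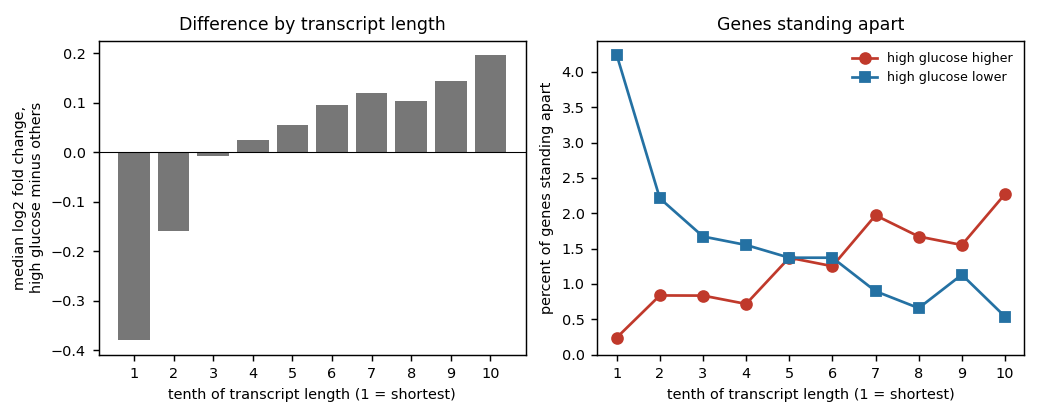
Left, median log2 fold change of high glucose minus both other groups (y axis) by transcript length, in 10 classes of equal size (x axis, 1 is the shortest). Right, percent of genes in each class that stood apart with higher or lower levels under high glucose. The median runs from -0.38 to 0.20, and lower genes are most frequent among the shortest transcripts, at 4.24%.

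The 10 most counted genes of each library, ranked within that library, held 11.9%, 12.5% and 13.3% of its counts under high glucose. In the others they held 14.5% to 18.6%, a difference of -3.48 percentage points (exact permutation test over 84 assignments, two-sided p = 0.0238, the smallest these libraries can give, 0.0397 adjusted over 5 library measures). Library totals and the number of genes with a count did not pass the same exact permutation test (p = 0.619 and 0.714). Omt2b, an oocyte maturation transcript, held 1.60%, 2.52% and 2.65% of counts under high glucose, 2.87%, 3.28% and 3.27% in control, and 4.29%, 4.94% and 5.02% with ZGW serum. Omt2a had 14774, 20602 and 23073 CPM against 25525 to 47012 CPM, and Oosp1, an oocyte-secreted protein gene, 2305, 2579 and 2763 CPM against 3343 to 5534 CPM. In all 3 genes the order was high glucose, control, ZGW serum with no overlap between any groups. ZGW serum and control differed by more than the rule allows, so none stood apart. Of the 50-base stretches, 29.5% in Omt2a and 13.2% in Omt2b occur in other transcripts as well, against 0% in Oosp1. The counts of Omt2a and Omt2b thus depend in part on how shared reads were assigned. Dppa3, which protects the maternal genome from demethylation, had 7719.8, 9337 and 12471 CPM against 10746 to 32869 CPM and overlapped. Other maternal genes among the 10 most counted over all libraries lay the other way on average. That set is fixed and can differ from a library's own 10. Oog3, an oogenesin gene, held 2.01%, 1.055% and 1.44% of counts under high glucose against 0.319% to 1.665%, and Spin1, a chromatin reader of the oocyte, 1.19%, 0.946% and 1.34% against 0.685% to 1.15%, both with overlap.

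Among 88 maternal genes, 59 were higher (51.3% over all genes), with a median of 0.25. In 8 all high glucose libraries lay above all others (1.8% over all genes), and in 3, Omt2b, Omt2a and Oosp1, below them (2.18% over all genes). The 8 were Fbxw15, Fbxw28, Fbxw14, Fbxw24, Fbxw20, Oas1d, Cnot7 and Nlrp9b. The first 5 belong to a family of F-box genes expressed in oocytes, whose proteins select substrates for ubiquitin ligases. The family was examined after these values were seen.

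Of its 14 members tested, 13 lie in a row on the minus strand of chromosome 9 (109139447 to 109790670, GRCm38), and Fbxw17 lies on chromosome 13. The 13 genes of the row had log2 fold changes from 0.11 in Fbxw19 to 1.36 in Fbxw13. Of these, 3 stood apart with higher levels (1.27% over all genes). Fbxw17 was at 0 to 4.92 CPM, with a mean of 0.836 CPM under high glucose and 1.02 CPM in the others, while its fitted log2 fold change was 0.18 ± 1.42 (SE). Fbxw14 had 1210.0, 1173 and 1104 CPM under high glucose, 534, 563 and 919 CPM in control, and 745, 371 and 555 CPM with ZGW serum (log2 fold change 0.93 ± 0.25, SE, edgeR adjusted p = 0.61). Its high glucose libraries were close together and its references were not. Fbxw28 had 1144, 1248 and 1216 CPM against 341 to 934 CPM, but 66% of its sequence and 67.6% of that of Fbxw14 occur in other transcripts. Which transcripts share it was not examined, so these 2 cannot be counted as separate observations. Fbxw15 shares little (8.71%) and had 259, 337 and 284 CPM under high glucose, 168, 150.1 and 220.3 CPM in control, and 145, 102 and 132 CPM with ZGW serum (DESeq2 adjusted p = 0.0196). Fbxw24 had 923, 1004 and 1025 CPM against 264 to 844 CPM and Fbxw20 had 154, 109 and 215 CPM against 27.5 to 100.5 CPM. The third control library was the highest control library in 10 of the 13 chromosome 9 genes and the second ZGW serum library the lowest ZGW serum library in 10, so the spread within the references was shared along the cluster.

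**Figure D5:**
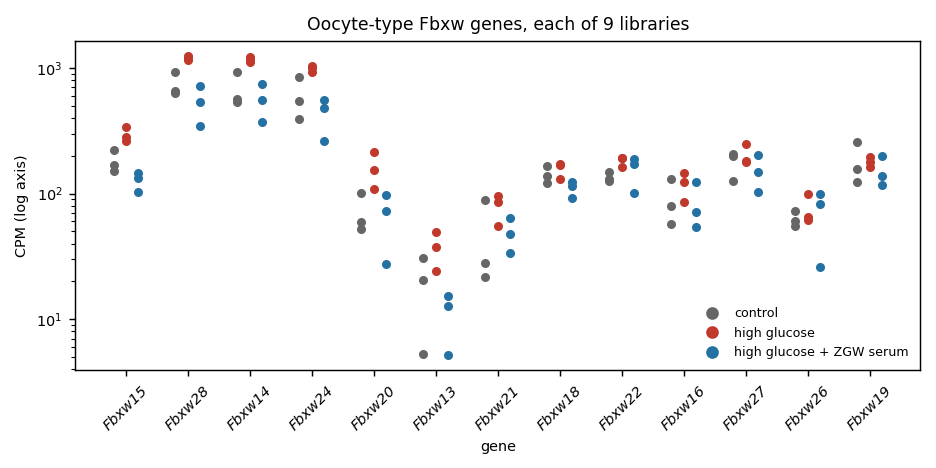
CPM (log axis) of the 13 chromosome 9 Fbxw genes in each library. The high glucose points lie above all others in Fbxw15, Fbxw28, Fbxw14, Fbxw24 and Fbxw20, and overlap with them in the other 8.

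Genes of the transient 2-cell burst were higher under high glucose than in the pooled references without standing apart. Of 57 tested, 51 had a log2 fold change above 0 (51.3% over all genes) with a median of 0.39, but it was 0.15 against control and 0.69 against ZGW serum, and ZGW serum was 0.58 below control. C87414 was the single member that stood apart, with a higher level (1.27% over all genes). Usp17lc, a deubiquitinase gene of the 2-cell stage, had 93.3, 37.1 and 67.5 CPM under high glucose, 26.9, 33.4 and 28.4 CPM in control, and 15.9, 16.3 and 15.7 CPM with ZGW serum. Its second high glucose library was near control, and 44.7% of its sequence occurs in transcripts of other genes as well.

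Among genes that handle sugar, Fbp1 stood apart. It encodes fructose-1,6-bisphosphatase, which opposes phosphofructokinase in gluconeogenesis. It had 63.3, 50.2 and 67.8 CPM under high glucose, 30.4, 3.35 and 17.1 CPM in control, and 20.4, 13.7 and 20.8 CPM with ZGW serum. All high glucose libraries were above all others, with a log2 fold change of 1.78 ± 0.51 (SE, edgeR adjusted p = 0.61, DESeq2 adjusted p = 0.091). The glycolysis list as a whole had a median of 0.02 (14 of 27 higher), and none of its other members stood apart. Slc2a1, the glucose carrier GLUT1, had 21.9, 10.4 and 23.9 CPM under high glucose against 9.72 to 57.8 CPM. Sord, which oxidises sorbitol in the polyol pathway, ranged from 6.62 to 44.4 CPM under high glucose, a wider span than in the others (10.1 to 17.3 CPM). Glucose carriers and hexokinases had a median of 0.34 that moved between -0.27 and 0.42 when single libraries were left out.

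Enzymes of pyruvate oxidation and the citrate cycle were higher in 26 of 35 cases (median 0.28), and 0 stood apart. Idh3a, the catalytic subunit of NAD-dependent isocitrate dehydrogenase, had 62.3, 80.6 and 79.5 CPM under high glucose, 39.7, 53.2 and 48.5 CPM in control, and 30.7, 24.4 and 38.6 CPM with ZGW serum. Dlst, a component of 2-oxoglutarate dehydrogenase, had 23.5, 31.9 and 31.7 CPM against 3.21 to 20.6 CPM. In both genes no high glucose library overlapped with the others, and the references differed from each other by more than the rule allows. The list's median was 0.06 against control and 0.43 against ZGW serum.

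Single genes from other lists also stood apart. Pmvk, phosphomevalonate kinase of sterol synthesis, had 3.56, 4.31 and 5.22 CPM under high glucose against 10.6 to 19.4 CPM (log2 fold change -1.69 ± 0.48, SE, DESeq2 adjusted p = 0.00708). Cdc20, the activator of the anaphase-promoting complex, had 44.2, 35.8 and 55.5 CPM against 68.9 to 117 CPM, with no difference in the mean between ZGW serum and control (log2 fold change 0.00, 95% interval -0.70 to 0.70). Egr1, an immediate early transcription factor, had 17.9, 9.55 and 9.54 CPM against 18.8 to 39.3 CPM. Each of these was low in all 3 high glucose libraries, though the first library of Egr1 nearly reached the lowest reference.

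Mdm4, an inhibitor of p53, was higher, with 3254, 2620.0 and 2756 CPM under high glucose against 1525 to 2406 CPM (log2 fold change 0.56 ± 0.18, SE). Glrx, glutaredoxin, had 246, 213 and 287 CPM against 69.0 to 191 CPM. Ythdf3, a reader of N6-methyladenosine in mRNA, had 352, 318 and 291 CPM against 192 to 251 CPM. Orc5, a subunit of the origin recognition complex, had 431, 409.6 and 369 CPM against 111 to 321 CPM, and the cochaperone Dnaja2 had 517, 411 and 395 CPM against 262 to 354 CPM. All 5 were above every reference library and none passed the edgeR test or DESeq2.

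Some genes with a large pooled difference did not belong to this pattern, because both glucose-loaded groups differed from control. Tsnax, the partner of translin, had 17.7, 15.9 and 29.4 CPM under high glucose and 16.02, 19.8 and 18.8 CPM with ZGW serum, but 0.876, 2.61 and 2.63 CPM in control. Its pooled log2 fold change of 1.78 had a DESeq2 adjusted p of 0.0179 and came from control. Chac2, which breaks down glutathione, had 34.4, 10.1 and 26.8 CPM under high glucose, 5.68, 3.30 and 29.8 CPM with ZGW serum and under 1 CPM in each control library. Wwtr1, the Hippo pathway coactivator TAZ, went the other way, with 4.09, 6.70 and 5.06 CPM under high glucose, 9.47, 15.8 and 10.1 CPM with ZGW serum and 40.7, 16.6 and 17.4 CPM in control, so ZGW serum lay between.

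Library totals ran from 11934924 to 16916343 counts, with no separation of the groups. The first principal component (17.8% of variance) placed the first control library and the last ZGW serum library at opposite ends, and the first high glucose library was apart on the second. Marker sums in this paragraph are CPM from library totals alone, without TMM factors. Summed cumulus and granulosa markers were 129.6 to 178.9 CPM in control, 115.5 to 127.3 CPM under high glucose and 97.8 to 133.2 CPM with ZGW serum. Serpine2 (409 to 939 counts) and Bmpr1b (218 to 647 counts) gave much of that sum. Of its defining genes, Inhba, Fst, Foxl2 and Areg had at most 4 counts in any library, Amh had 5 to 34, and Fshr had 20 counts in the second control library and 0 or 1 elsewhere. Others were detected: Hsd17b1 had 12 to 119 counts, Cyp19a1 0 to 232, Tnfaip6 0 to 104 and Lhcgr 0 to 88, each with overlap between high glucose and the other groups. Amhr2 had 54 to 67 counts under high glucose and 82 to 237 in the others. Of 11 blood markers tested 8 were lower and 3 higher (median -0.62). Laptm5 was the single one that stood apart, with a higher level (1.27% over all genes). It had 242, 108 and 223 counts under high glucose against 1 to 77 in the others. Srgn, the most counted of the list, had 1964 to 4282 counts under high glucose and 1881 to 3482 in the others. The blood list summed to 425.6 to 537.4 CPM under high glucose, 446.3 to 543.1 CPM in control and 577.2 to 733.5 CPM with ZGW serum, with the beta globins at 4 counts or fewer and Ppbp at 0 in all libraries, while both alpha globin genes were given the same 533 to 3759 counts. Stroma and epithelium markers were at 93.4 to 124.8 CPM under high glucose and 41.1 to 217.2 CPM in the others, and sperm markers at 107.6 to 178.0 and 83.4 to 183.3 CPM. The part of these other cells in the results was not tested.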

How the data were processed

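The deposited table holds raw read counts by symbol (24454 genes, 9 libraries), which the authors left without normalisation. The submitters' processing notes list Trim Galore and mm10. Neither aligner nor counter, annotation or strand setting is given in the sources used here. From these counts, edgeR 4.0.16 (R 4.3.3) fitted 1 mean per group to all 9 libraries with TMM factors, a filter at a minimum count of 10 and robust quasi-likelihood, and tested high glucose minus the mean of control and ZGW serum, two-sided, with Benjamini-Hochberg adjustment over 16964 genes and a threshold of 0.05. DESeq2 1.42.0 and limma-voom 3.58.1 were alternatives. The test was checked on simulated counts. SE is that of the log2 fold change.

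The comparison, gene lists and markers were chosen with earlier results of these data known. Named genes are the 12 of lowest p each way with a mean over the libraries of 10 CPM or more, predicted and clone symbols left out, filled from genes that stood apart since none passed, and up to 4 members of each list by p. Members that stood apart beyond these, list exceptions and the Fbxw family were named after values were seen. Of the genes chosen, 1 higher gene and 1 list member are not reported here. Positions and lengths came from GENCODE M21, with 98.8% of tested genes matched, and promoters from RefSeq. Among genes with at least 100 counts, 277 had counts identical to another gene's. Libraries of a group differed by chi-square values of 50.9 to 136 per degree of freedom, so none was a copy of another.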

Additional observations from a re-analysis of the deposited data

How the results depend on the processing

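DESeq2 called 87 genes where edgeR called 0. Under RLE factors, limma-voom, other filters, 1 mean for both references and the omission of any single library the count stayed at 0. Genes that stood apart numbered 111 higher and 152 lower when ZGW serum and control had to lie within the difference divided by 4, against 215 and 266. Leaving out a library gave 262 to 533 higher and 318 to 821 lower, since fewer libraries have to be separated. The largest counts, 533 and 821, came without the second high glucose library, and 451 and 481 came without the first and 474 and 539 without the last. The lower count was 423 without the last control library and the higher count 326 without the last ZGW serum library. Leaving out the first control library and the last ZGW serum library together, an alternative chosen after seeing the data, gave 452 and 541. The top 50 and top 100 genes of each library gave differences in share of -2.87 and -2.73 percentage points.

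The replicate numbers did not pair the libraries: correlations of same-numbered libraries were -0.006 to 0.104, and 2 of 9 libraries correlated best with their own number. A fit with the replicate number as a block called 0 genes.

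For 88 named genes, 1290 of 1320 alternative values kept their direction and side of the threshold, and the other 30 were all past the threshold with DESeq2. Of 39 list medians, 19 changed sign under at least 1 setting, all with a reported median between -0.35 and 0.34. The ribosomal protein, respiratory, Sm and LSm, 2-cell, maternal and citrate cycle lists were not among them. At this replication the simulated counts recovered 6% of 2-fold differences, and the limit set by depth was not tested. The 9 libraries hold pools of 3 embryos, so variation between single embryos was not measured.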
